A study of Sus scrofa domesticus with 4 samples.

Results

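DNMT1 encodes the maintenance DNA methyltransferase, and its transcript was measured in pig myometrium, the muscular wall of the uterus, after culture with or without orexin A (OXA). All 6 probes of the array design that carry the RefSeq transcript NM_001032355 of DNMT1 were taken, out of 43603 non-control probes, and DNMT1 is 1 of 3029 genes that could be named through RefSeq accessions. The gene was picked with its log2 ratios of OXA over non-treated tissue known, so those ratios are given here as a description, with no test. On each of the 4 arrays, all 6 probes were well above background with either dye, so none was lost to a filter on dim signals.

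Explants of about 100 mg came from the middle of the uterine horns of 4 gilts (Large White x Polish Landrace, 7 to 8 months old) on days 15 to 16 of gestation. OXA-treated explants were kept for 24 h with OXA after 2 h of preincubation, and non-treated explants were kept alike without it. The sample labels give 10 nM OXA and the series' design text gives 10 µM, and these sources do not settle which was used. OXA is a peptide hormone that acts on the orexin receptors. Each of 4 dual-colour arrays carried OXA-treated and non-treated RNA side by side in different dyes. By the sample labels, OXA was in Cy5 on the odd-numbered arrays (1 and 3) and in Cy3 on the even-numbered ones (2 and 4). The labelling protocol in the same labels words it differently, with OXA-treated RNA in Cy5 throughout. Values are given with the dyes as in the sample labels, and directions and counts also under that other wording and with array 2 alone turned. Whether the paired extracts of an array shared a gilt is not stated plainly in the labels.

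DNMT1 copies the methylation of CpG sites from the parental strand to the newly made strand behind the replication fork, where UHRF1 and PCNA recruit it. DNMT3A and DNMT3B instead set methylation at sites that had none, and the TET enzymes start its removal. The methyl group comes from S-adenosylmethionine, which the methionine cycle renews. In dividing cells the DNMT1 transcript is highest in S phase.

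With the dyes as labelled, the DNMT1 transcript had positive log2 ratios on every array when its 6 probes were summarised by their median. The medians were 0.31, 0.24, 0.27 and 0.66 on arrays 1 to 4. Their mean was 0.37 ± 0.20 (SD, n = 4), which is 1.29-fold higher in OXA-treated tissue on the scale of the deposited log2 ratios. Arrays 1, 2 and 3 lay close together and array 4 stood above them. Named genes with such a positive median on all 4 arrays made up 4.79% of the 1985 tested. Since the gene was chosen on this contrast, nothing is read from that share.

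The tested probes as a whole were centred near 0, with medians of 0.00 to 0.01 on arrays 1, 3 and 4 and of -0.05 on array 2. Against these, the DNMT1 median stood at percentiles 66.8, 64.7, 79.9 and 83.8 of the tested probes on arrays 1 to 4. Genes with a RefSeq name had other medians, of 0.27, -0.32, 0.04 and 0.33 on arrays 1 to 4. Among those named genes DNMT1 stood at percentiles 53.2, 82.1, 77.5 and 74.9 on arrays 1 to 4. The value of DNMT1 on array 1 was thus near that of a typical named gene. On array 4, where the ratio of DNMT1 itself was highest, its place among named genes was lower than on array 2.

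The probes of DNMT1 differed from each other, and so did the arrays within a probe. On single arrays, the SD over the 6 probes was 0.31, 0.32, 0.21 and 0.35 on arrays 1 to 4. Within a probe, the median SD over arrays was 0.24. Probe means over the 4 arrays ran from 0.19 to 0.77, with an SD of 0.23 over the 6 probes. Of the 24 single values, 21 were positive with the dyes as labelled, 13 with OXA in Cy5 throughout and 19 with array 2 turned. In size, 19 of the 24 were larger than the scanner's own error for that spot. This error ran from 0.205 to 0.324 on the log2 scale. With the dyes as labelled, the 3 negative values came from arrays 2 and 3. All 6 probes carry 1 accession and report the same gene, so they are repeated readings of each extract and not replicates of the treatment. Probe sequences and their positions along the transcript were not analysed here.

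**Figure D1:**
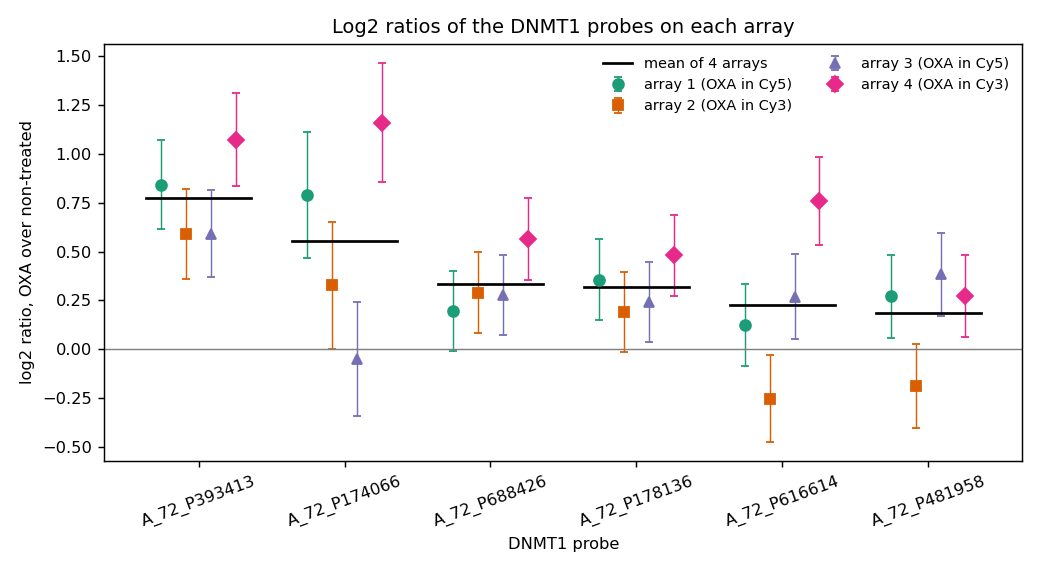
Log2 ratio of OXA over non-treated tissue (vertical axis) for the 6 DNMT1 probes (horizontal axis, highest mean on the left) on each of 4 arrays. Points are single arrays, bars are the scanner's error for the spot, and black lines are means over 4 arrays, which run from 0.19 to 0.77 with 21 of 24 points above 0 when the dyes are as labelled (13 of 24 with OXA in Cy5 throughout).

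The largest difference among the 6 probes was that of A_72_P393413. Its processed signal, which the scanner software corrects for background and dye, was 424, 331, 311 and 386 in OXA-treated tissue on arrays 1 to 4, against 236, 220, 206 and 184 in non-treated tissue. Every OXA-treated value was above every non-treated value, and the groups did not overlap. Such a gap, with OXA higher, was found for 0.379% of 19505 tested probes, and A_72_P393413 was the 1 DNMT1 probe of 6 to show it. Its log2 ratios were 0.84, 0.59, 0.59 and 1.07, with a mean of 0.77 ± 0.23 (SD, n = 4) or 1.71-fold.

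A_72_P688426 and A_72_P178136 gave smaller ratios with less spread. A_72_P688426 had signals of 2399, 2112, 2035 and 2845 in OXA-treated tissue on arrays 1 to 4, against 2097, 1728, 1677 and 1922 in non-treated tissue. The OXA-treated value was the higher one on each array, while the groups overlapped across arrays. Its log2 ratios of 0.19, 0.29, 0.28 and 0.57 averaged 0.33 ± 0.16 (SD, n = 4), which is 1.26-fold.

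For A_72_P178136 the signals were 2327, 1944, 1708 and 2332 in OXA-treated tissue, against 1819, 1705, 1446 and 1671 in non-treated tissue. Array 3 was the lowest in both channels, and again each OXA-treated value exceeded its non-treated partner. The log2 ratios were 0.36, 0.19, 0.24 and 0.48, with a mean of 0.32 ± 0.13 (SD, n = 4) and the smallest SD of the 6 probes. With the dyes as labelled, these 3 probes were positive on all 4 arrays, a property of 3.96% of the tested probes. With OXA in Cy5 throughout, 0 of the 6 DNMT1 probes were, beside 5.46% of the tested probes. With array 2 turned, 2 of the 6 were, beside 17.7% of the tested probes.

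Each of the other 3 probes had 1 negative array. A_72_P174066 had signals of 127, 120, 92.7 and 141 in OXA-treated tissue, against 73.6, 95.9, 96.1 and 62.9 in non-treated tissue. The channels were nearly equal on array 3 and far apart on array 4. Its log2 ratios of 0.79, 0.33, -0.05 and 1.16 averaged 0.56 ± 0.53 (SD, n = 4), the widest spread of the 6. Without array 4 the mean was 0.35, and without array 3 it was 0.76.

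A_72_P616614 had signals of 323, 218, 226 and 393 in OXA-treated tissue, against 296, 260, 187 and 232 in non-treated tissue. On array 2 the non-treated channel was the brighter one. The log2 ratios were 0.12, -0.25, 0.27 and 0.76, and their mean of 0.22 ± 0.42 (SD, n = 4) was smaller than its spread. It was 0.05 without array 4 and 0.38 without array 2.

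A_72_P481958 had signals of 525, 368, 445 and 498 in OXA-treated tissue, against 435, 419, 341 and 412 in non-treated tissue. Array 2 again ran the other way. The log2 ratios of 0.27, -0.19, 0.38 and 0.27 averaged 0.19 ± 0.25 (SD, n = 4), the lowest mean of the 6. This mean was 0.12 without array 3 and 0.31 without array 2. On array 2 the probes of DNMT1 were therefore split, with 4 positive and 2 negative, while all 6 were positive on arrays 1 and 4 and 5 of 6 on array 3.

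**Figure D2:**
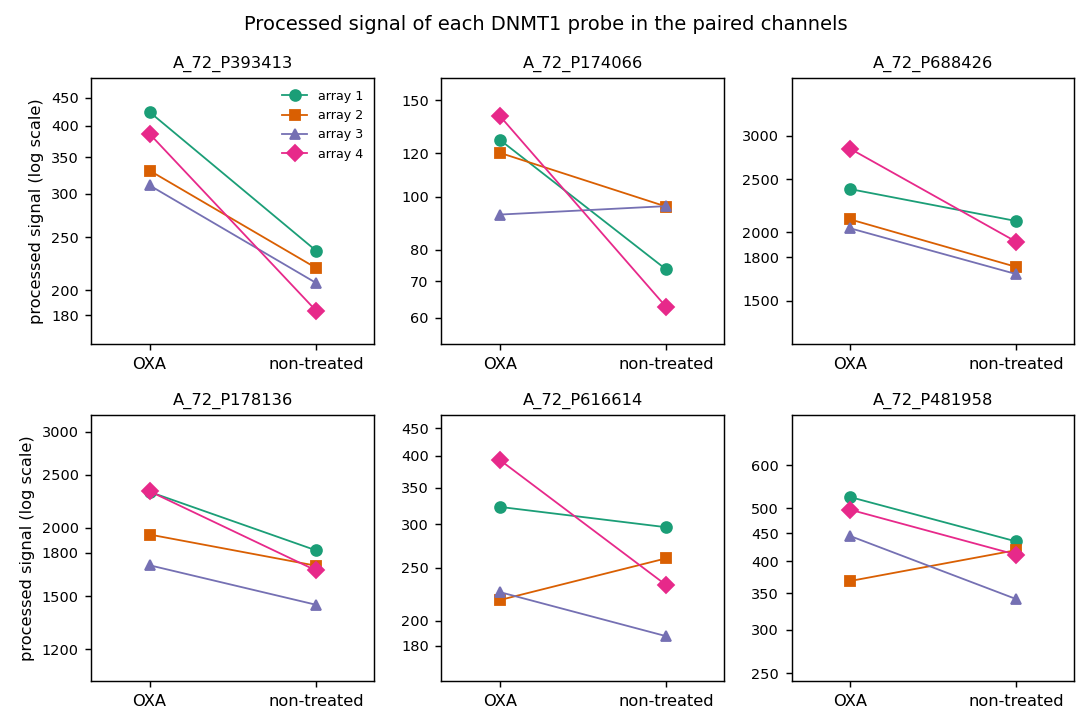
Processed signal (vertical axis, log scale) of each DNMT1 probe in OXA-treated tissue (left) and non-treated tissue (right), with a line joining the 2 channels of an array. For A_72_P393413 all OXA-treated points (311 to 424) lie above all non-treated points (184 to 236), and the other 5 probes overlap between the groups, with the dyes as labelled.

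Signals of different arrays share no common scale, so each channel was also set against the 75th percentile of its own probes. The median of the 6 DNMT1 probes on this log2 scale was 0.68, 0.34, 0.30 and 0.27 in OXA-treated tissue on arrays 1 to 4, against 0.28, 0.28, -0.20 and -0.26 in non-treated tissue. OXA-treated tissue averaged 0.40 ± 0.19 and non-treated tissue 0.02 ± 0.29 (SD, n = 4 each). The lowest OXA-treated value (0.272, array 4) lay just under the highest non-treated value (0.278, array 2), so the groups overlapped narrowly. The non-treated values formed a higher pair (arrays 1 and 2) and a lower pair (arrays 3 and 4), and the gap between these pairs was wider than the difference between the group means. For A_72_P393413 alone, the groups did not overlap on this scale either. The share of all tested probes with such a gap was not computed on this scale, so nothing is read from it.

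Split by labelled dye orientation, the DNMT1 median averaged 0.29 over the 2 arrays with OXA in Cy5 and 0.45 over the 2 with OXA in Cy3. As all 4 arrays were positive, both of these means had to be, and they are given for their size only. By probe, 5 of 6 had the higher mean with OXA in Cy3, by at most 0.38 (A_72_P174066, 0.37 with Cy5 against 0.74 with Cy3). A_72_P481958 was the exception, with 0.33 in the Cy5 orientation and 0.04 in the Cy3 orientation.

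The direction of DNMT1 rests on the dyes being as the sample labels say. With OXA-treated RNA in Cy5 throughout, as the labelling protocol words it, the DNMT1 median is 0.31, -0.24, 0.27 and -0.66 on arrays 1 to 4, with a mean of -0.08 ± 0.46 (SD, n = 4), and arrays of the 2 orientations then oppose each other. Arrays 2 and 4 share a dye orientation, yet their log2 ratios correlated at r = -0.38 across 19500 probes, and arrays 1 and 2, of opposite orientation, at r = -0.59. Arrays 1 and 4, also of opposite orientation, correlated at r = 0.62, and arrays 1 and 3, which share theirs, at r = 0.23. Array 3 had r = -0.30 with array 2 and r = -0.06 with array 4. Probes within an array are not independent replicates. With array 2 alone turned, the DNMT1 mean is 0.25 ± 0.37 (SD, n = 4). None of the 6 DNMT1 probes then has groups of signals that do not overlap with OXA higher, nor has any with OXA in Cy5 throughout, beside 0.923% and 0.41% of all tested probes. The scaled level averages 0.25 ± 0.39 in OXA-treated and 0.17 ± 0.25 in non-treated tissue with OXA in Cy5 throughout, and 0.38 ± 0.20 and 0.04 ± 0.31 with array 2 turned (SD, n = 4 each). The direction given by the sample labels was kept, which the deposited value table follows.

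Another normalization changed the size of the DNMT1 median and not its sign. When median spot signals were corrected with normexp and normalized by loess in limma, the DNMT1 median was 0.20, 0.20, 0.32 and 0.27 on arrays 1 to 4, with a mean of 0.25 ± 0.06 (SD, n = 4). Array 4 no longer stood above the others. A_72_P393413 had 0.52 ± 0.07 there and stayed the highest of the 6 probes. A_72_P174066 had 0.22 ± 0.17 and was positive on all 4 arrays with loess, against 3 of 4 in the deposited table.

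**Figure D3:**
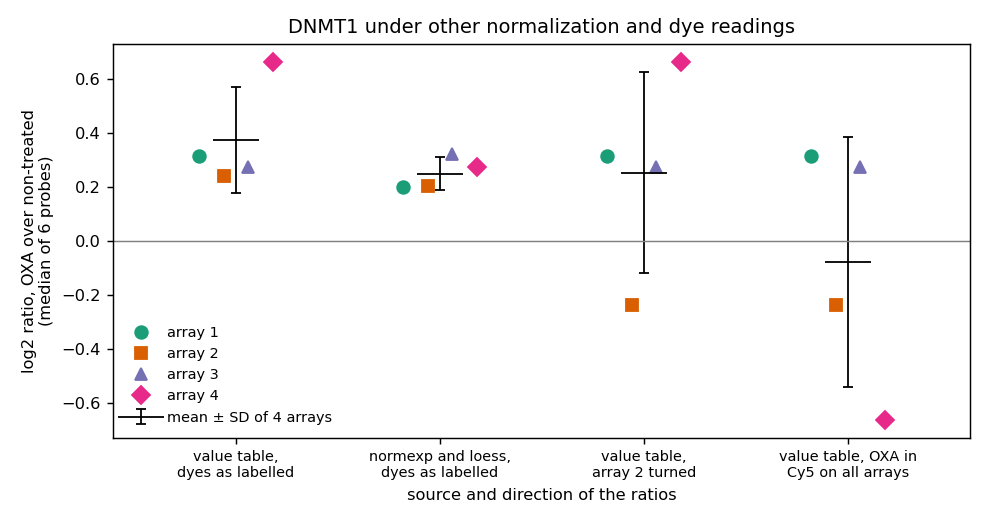
Median log2 ratio of the 6 DNMT1 probes (vertical axis) on each array for 4 sources or directions of the ratios (horizontal axis), with the mean and SD over 4 arrays in black. The means are 0.37, 0.25, 0.25 and -0.08 from left to right, and all 4 arrays are positive in the 2 settings with the dyes as labelled.

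Across the whole table, limma called 0 of 19505 tested probes at an adjusted p of 0.05, which is 0%, and the lowest adjusted p was 0.998. Without adjustment, 235 probes (1.2%) had a p under 0.05. Without array 2 the fit called 1093 probes, against 1, 5 and 6 probes without arrays 1, 3 and 4. In those fits limma gave all probes 1 shared variance, so such counts cannot be set against the fit of 4 arrays. With all 4 arrays, no gene was called either in 12 lists drawn around DNMT1. These lists reach beyond its pathway, to cell division, imprinted genes and chromosomal neighbours. Of their genes, 63 could be named on the array and 44 were tested. In limma, 0 of the 44 passed in either direction and 0 had an unadjusted p under 0.05. Positive means were found for 26 of them and negative means for 18, beside 1228 positive and 757 negative among all 1985 named genes tested. On all 4 arrays, 3 were positive (BTG1, CCND2 and ICAM1) and 1 was negative (MDM2), beside 95 and 64 of all 1985 named genes. These counts depend on the dye reading. With OXA in Cy5 throughout, 30 list genes had positive and 14 negative means, beside 1300 and 685 of all named genes. With array 2 turned, the counts were 32 and 12 in the lists, beside 1447 and 538 of all named genes. The genes of 1 sign on all arrays were other ones in both readings. With OXA in Cy5 throughout they were CCND3 and PLAGL1 (positive) and CDH1 (negative), beside 99 positive and 50 negative of all 1985 named genes. With array 2 turned, 12 were positive and 5 negative, beside 554 (27.9%) and 120 of all named genes. The 5 negative ones were BTG2, DIRAS3, MEG3, OGT and SIRT1. These were named after their values were seen. The limma adjusted p was 0.998 or above for every gene named below.

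Of the maintenance partners, 2 of 17 listed genes could be named on the array and 1 was tested. This was USP7, a deubiquitinase that stabilises DNMT1 and UHRF1, and it had 0.15, 0.04, -0.32 and 0.28 on arrays 1 to 4, with a mean of 0.04 ± 0.26 (SD, n = 4). Its 4 probes averaged -0.15 to 0.55. DMAP1, a DNMT1-binding corepressor, was not well above background on enough arrays. UHRF1 and PCNA had no named probe here.

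DNMT3A, a de novo methyltransferase, had 0.32, -0.21, -0.27 and 0.71 on arrays 1 to 4, with a mean of 0.14 ± 0.46 (SD, n = 4). It was negative on arrays 2 and 3, where the DNMT1 median was positive. TRDMT1, a homologue that methylates transfer RNA, had the opposite signs with -0.25, 0.36, 0.33 and -0.39 and a mean of 0.01 ± 0.39. The 2 probes of DNMT3A averaged -0.13 and 0.41, and the 2 probes of TRDMT1 averaged -0.11 and 0.13. The probes of each gene thus differed in sign, and no contrast with DNMT1 in the order of the arrays is read from them.

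Among genes tied to removal of DNA methylation, 4 of 16 were tested, with a median of 0.01, beside 0.07 for all named genes. OGT, which glycosylates proteins and binds TET enzymes, had a mean of -0.45 ± 0.55 (SD, n = 4) and was positive only on array 2 (0.11). GADD45A, a stress protein, had -0.80, 0.74, 0.40 and -0.28 and averaged 0.02 ± 0.69. APEX1, an endonuclease of base excision repair, averaged -0.01 ± 0.44, and IDH2, which makes the cofactor of TET enzymes in mitochondria, averaged 0.08 ± 0.38. Of the reader list, the 1 tested gene was KDM2A, a histone demethylase that binds unmethylated CpG sites, with 0.00 ± 0.34. TET1, TET2 and TET3 had no named probe here.

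The methionine cycle and one-carbon list had 5 tested genes of 10 on the array, all with positive means and with a median of 0.22. With OXA in Cy5 throughout, 3 of the 5 means were positive and the median was 0.01, and with array 2 turned the median was 0.36, beside 0.08 and 0.25 for all named genes. AHCY, which clears the S-adenosylhomocysteine that methyltransferases release, had 0.41, 0.05, -0.03 and 1.10 on arrays 1 to 4 and averaged 0.38 ± 0.52 (SD, n = 4). Like DNMT1 it was highest on array 4. FOLR1, a folate receptor, had 0.52, -0.58, 0.65 and 0.97 and averaged 0.39 ± 0.68. AHCYL1, a relative of AHCY that binds the IP3 receptor, averaged 0.22 ± 0.79, and MAT2B, a regulatory subunit of S-adenosylmethionine synthetase, averaged 0.01 ± 0.16.

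Histone modifiers that bind or act beside DNMT1 had a median of -0.07 over 5 tested genes, 4 of them with negative means. The median turned to 0.06 with OXA in Cy5 throughout and to 0.09 with array 2 turned. SIRT1, a deacetylase, had -0.36 ± 0.54, EHMT2, a histone H3 methyltransferase, had -0.14 ± 0.35, SUV39H2, another one, had -0.07 ± 0.34, and KDM1A, a histone demethylase, had -0.01 ± 0.61 (SD, n = 4 each). The signs of KDM1A were those of DNMT3A, positive on arrays 1 and 4.

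Few genes of dividing cells were measurable beside DNMT1. Of 8 mitosis genes named on the array, 3 were tested, and TOP2A, CCNB1, CCNB2, CDC20 and AURKA were not well above background on enough arrays. CDK1, the mitotic kinase, had 1.16, 0.12, 0.45 and -0.27 on arrays 1 to 4, BIRC5, a spindle and survival protein, had 1.39, -0.56, 0.10 and 0.81, and AURKB, a mitotic kinase, had 0.21, -0.35, 0.07 and 0.21. Their means were 0.37 ± 0.61, 0.43 ± 0.85 and 0.04 ± 0.26 (SD, n = 4). The 1 tested gene of DNA replication, PRIM1, a primase subunit, had -0.12, 0.56, 0.31 and -2.03. Array 4, where DNMT1 was highest, was thus the array where PRIM1 was lowest. PRIM1 was read by 1 probe, however, and its signals did not all stand clear of background, unlike those of DNMT1. Whether the value of -2.03 came from a dim signal was not tested, so no contrast with DNMT1 is read from it. The mean of PRIM1 was -0.32 with the dyes as labelled, 0.42 with OXA in Cy5 throughout and -0.60 with array 2 turned.

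Cell cycle regulators had a median of 0.07 over 8 tested genes, 5 with positive and 3 with negative means. CCND2, a D-type cyclin, was positive on all arrays with 0.64, 0.04, 0.25 and 0.92, and its mean was 0.46 ± 0.39 (SD, n = 4). BTG1, an antiproliferative factor, was also positive on all 4, with a smaller mean of 0.12 ± 0.09. CCND3, another D-type cyclin, averaged 0.13 ± 0.91 with opposite signs on arrays 1 and 4 (1.00 and -0.82). MDM2, a ubiquitin ligase, averaged -0.10 ± 0.09. It was named for its common sign, after its values were seen.

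Of 9 tested imprinted genes, which are expressed from 1 parental allele under control of methylation that DNMT1 maintains, 2 had positive and 7 negative means, with a median of -0.12. Both other dye readings gave the opposite split, 7 positive and 2 negative, with a median of 0.24 with OXA in Cy5 throughout and of 0.20 with array 2 turned. With the dyes as labelled, IGF2R had 0.36 ± 0.84, GRB10 had 0.18 ± 0.49, SGCE had -0.36 ± 0.70 and DIRAS3 had -0.28 ± 0.36 (SD, n = 4 each). The other 5 had means of -0.26 to -0.0043. Of genes known in other species for control by promoter methylation, 5 were tested, of which 4 had positive means and 1 a negative one, with a median of 0.25. The other readings gave the same counts but another negative gene. CDH1 had a positive mean with the dyes as labelled and the 1 negative mean in both other readings. The medians were 0.17 with OXA in Cy5 throughout and 0.25 with array 2 turned, beside 0.08 and 0.25 for all named genes. The oestrogen receptor ESR1 had 0.38 ± 0.41 and the oxytocin receptor OXTR had 0.20 ± 0.27, each negative on array 2 alone. CDH1, the epithelial cadherin, had -1.15, 2.06, -1.18 and 1.53 on arrays 1 to 4.

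Of the 10 genes nearest to DNMT1 along the chromosome, by their order in the RefSeq table of assembly Sscrofa11.1, ICAM1 was the 1 that could be measured. ICAM1, an adhesion molecule for leukocytes, had 0.53, 0.47, 0.35 and 0.46 on arrays 1 to 4, with a mean of 0.45 ± 0.07 (SD, n = 4, 1 probe). Its values varied less over the arrays than the DNMT1 median did. Its mean was -0.01 with OXA in Cy5 throughout and 0.22 with array 2 turned.

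**Figure D4:**
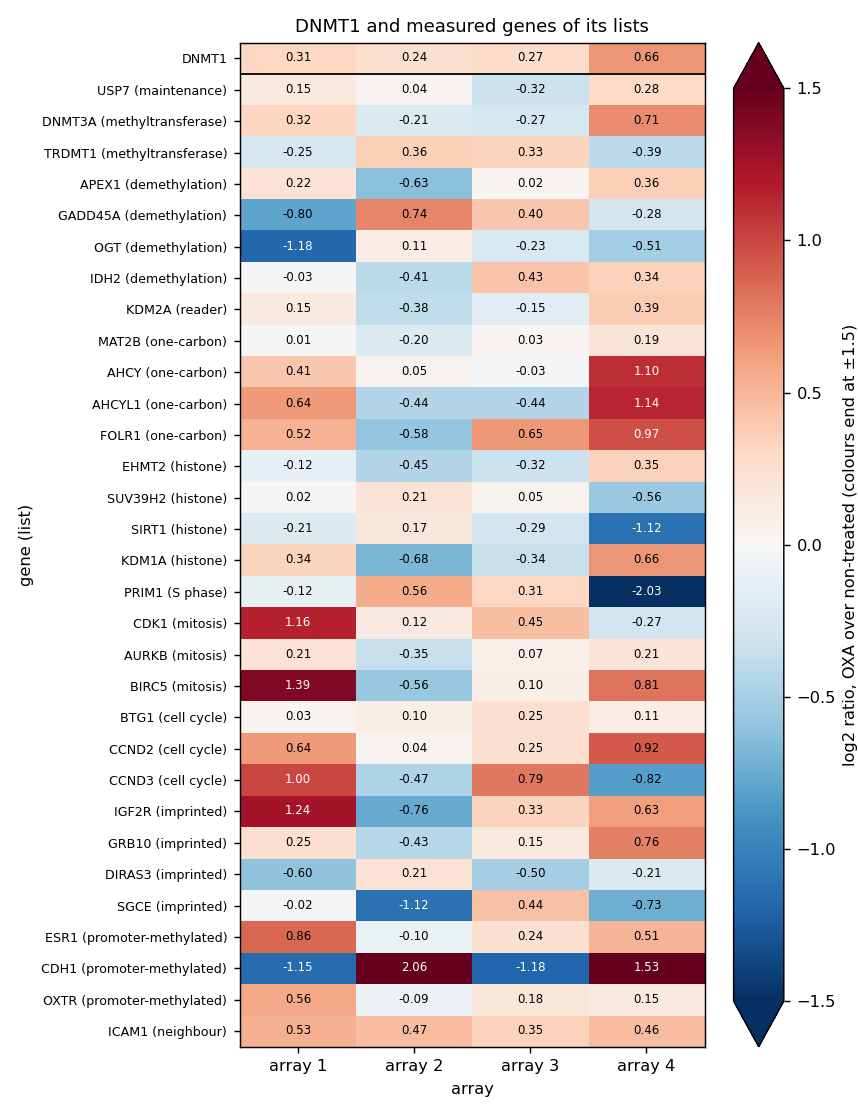
Log2 ratios of OXA over non-treated tissue (colour and printed value) on each array (columns) for DNMT1 and the measured genes named from its lists (rows). With the dyes as labelled, DNMT1 in the top row has 4 positive values, as have CCND2, BTG1 and ICAM1, while most other rows hold both signs.

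The named genes most like DNMT1 were taken by the root mean square difference of log2 ratios over the 4 arrays, among 1964 genes, for which the median difference was 0.578. Turning an array changes both genes alike and leaves this measure as it is. SMAD3, a transcription factor of TGF-beta signalling, came closest at 0.0817, with 0.30, 0.34, 0.15 and 0.69 on arrays 1 to 4. Like DNMT1 it was positive throughout and highest on array 4. CAST, the calpain inhibitor, followed at 0.0998 with 0.49, 0.30, 0.25 and 0.74. COX5B, a subunit of cytochrome c oxidase, differed by 0.111, and TXNIP, an inhibitor of thioredoxin, by 0.129. The next were TBC1D20, a GTPase activator for Rab proteins (0.132), UQCR10, a subunit of respiratory complex III (0.132), MAGED1 (0.152) and WDR83OS (0.168). Except for MAGED1, with -0.04 on array 2, these genes were positive on all 4 arrays with the dyes as labelled. They were picked for values close to those of DNMT1, so nothing is read from shared signs or a shared high value on array 4.

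All 7 smooth muscle markers that could be named (ACTA2, CNN1, DES, MYLK, SMTN, MYOCD and TPM2) passed the filter on background. So did the 4 named markers of uterine epithelium, 7 of macrophages, 4 of fibroblasts and 5 of endothelium, so passing this filter does not tell the labelled tissue from other cells. In RNA of whole explants, fewer cells of a type and less RNA per cell cannot be told apart. Smooth muscle markers had median log2 ratios of -0.44, -0.15, 0.20 and -0.13 on arrays 1 to 4, and their summed signal was 243396 to 545061 in OXA-treated tissue and 224309 to 657414 in non-treated tissue. The 4 markers of uterine epithelium had medians of -1.46, 2.06, -1.05 and 2.02, with sums of 82.0 to 8058 in OXA-treated tissue and 199 to 2052 in non-treated tissue. The 7 macrophage markers had medians of 0.80, -0.86, 2.13 and 0.73, with sums of 1210 to 8776 in OXA-treated tissue and 1366 to 5019 in non-treated tissue.

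Fibroblast markers (4 genes) had medians of -0.22, -0.36, 0.09 and -0.68, and endothelial markers (5 genes) had -0.42, -0.54, 0.16 and 0.76. Of 12 lymphocyte genes on the array, 10 were not well above background on enough arrays, CD3D, CD3E, CD4 and CD8A among them. The remaining 2, NKG7 and GZMB, had medians of 0.65, -0.45, 0.56 and 0.40. Blood markers had no named probe here. With the dyes as labelled, none of the 6 measured marker lists had a median of 1 sign on all 4 arrays, which the DNMT1 median had. With OXA in Cy5 throughout, the epithelial median was negative on all 4, and with array 2 turned the macrophage and lymphocyte medians were positive on all 4, while the DNMT1 median had both signs in either reading. The part of these cell types in the DNMT1 ratio was not tested.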

How the data were processed

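Total RNA of OXA-treated and non-treated myometrium was hybridised to 4 Agilent dual-colour arrays, all on 1 slide and from 1 scan by their headers, which leaves no slide or scan block to fit. The authors' scanner files hold spot and background intensity, and the processed signal intensity that Agilent Feature Extraction 10.7.3.1 corrects for background and dye, per the file headers. Their LogRatio column is the log10 of red (Cy5) over green (Cy3), per the file headers. The authors' value table gives log2 ratios. Set against the scanner ratios it had a slope of 1 on arrays 1 and 3 and of -1 on arrays 2 and 4. At least 99.986% of probes above background lay within 0.001. It thus runs as OXA over non-treated if the dyes are as in the sample labels, and it cannot show whether they are. Its column medians over all rows were 0.10, 0.10, -0.19 and 0.07, and no further centring was found. The value table is used for ratios and the processed signals for levels, since the members were defined on them.

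Control spots (1417 per array) were left out, and spots of 1 probe were averaged. Signals well above background were found for 39.9% to 49.7% of probes with OXA and for 41.5% to 61.1% without it. Saturated spots numbered 0. Probes entered the test when 1 of the 2 treatments was well above background on 3 or more arrays. RefSeq accessions without versions, matched to a RefSeq table of assembly Sscrofa11.1, named 6700 probes, and 36903 stayed unnamed here. A gene's value on an array is the median of its tested probes, and a gene is called if at least 1 probe is.

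limma 3.58.1 in R 4.3.3 was fitted to all tested probes with a term for OXA and a term for dye bias (2 residual degrees of freedom). Tests were two-sided, with Benjamini-Hochberg adjustment and a threshold of 0.05, and were tested on simulated data. The number of arrays limits the precision. The labels speak of 4 individuals and 4 separate culture experiments. Nothing in them says whether duplicate cultures were pooled. The members and lists were chosen with earlier results of these data known. Named genes were all measured genes of the lists on maintenance, methyltransferases, demethylation, readers and neighbours, the 4 with the smallest unadjusted p of each other list, and the 8 genes most like DNMT1. Some genes that this rule names are not reported here. Alternatives were normexp (offset 50) with loess, the scanner's LogRatio, median centring, other filters, other directions, no dye term, leaving out each array, other summaries of probes, and signals without scaling.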

Additional observations from a re-analysis of the deposited data

Results flagged for a closer look

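Among 66 sets of 4 array values (the DNMT1 probes and median, the named genes and the lists), Dixon's ratio singled out an array in 1 set. Chance alone would single out about 5% of such sets. TBC1D20, one of the genes most like DNMT1, had 0.66 on array 4 and 0.10 to 0.14 on the others. None of the 6 DNMT1 probes was set apart in this way. The DNMT1 median fell just short of being singled out, with 0.66 on array 4 and 0.24 to 0.31 on the others.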

How the results depend on the processing

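With the dyes as labelled, the DNMT1 median stayed positive with loess, median centring and both other summaries of probes (means of 0.25 to 0.40). The scanner's LogRatio, both other filters and no dye term left it at 0.37, as they had to. All 6 probes passed each filter, the dye term does not enter a mean of ratios, and the deposited ratios are the scanner's own. Leaving out each array gave 0.28 to 0.42, where a positive sign was fixed because all 4 arrays were positive. The median over probe means then ran from 0.26 to 0.37. A_72_P616614 ran from 0.05 to 0.38, A_72_P174066 from 0.35 to 0.76 and A_72_P481958 from 0.12 to 0.31 in the same way. When OXA is read as Cy5 throughout, the DNMT1 median reversed to -0.0791 and the median over probe means to -0.0432. Of the probes, A_72_P393413 (-0.0576), A_72_P174066 (-0.188), A_72_P688426 (-0.0956), A_72_P178136 (-0.0188) and A_72_P616614 (-0.0288) reversed and A_72_P481958 did not. That reading sets the signs of arrays 2 and 4 against those of arrays 1 and 3 by construction. A_72_P393413 moved by more than its SD with loess (0.52) and with array 2 turned (0.48). Without scaling, the level difference between OXA-treated and non-treated tissue was 0.37, as it was with scaling. limma called 0 probes in all settings with 4 arrays, though 5097 had an unadjusted p under 0.05 with array 2 turned. Leaving out an array gave 1 to 1093 called probes, the highest without array 2 and 1, 5 and 6 without arrays 1, 3 and 4. In such fits 1 array is alone in its dye orientation, with 1 residual degree of freedom, and its spread is assumed to be that of the others. All probes then shared 1 variance in limma, so these counts cannot be set against those with 4 arrays. None of the 44 tested list genes was called in limma in any setting run, where no filter tested 63 and the strict filter 37. The ratios within arrays already pair the treatments by array, so the limma fit is paired by array. Whether this is also a pairing by gilt is not stated plainly in the labels. With 1 group of arrays no further replicate block could be fitted.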
